A study of Gallus gallus with 8 samples.

Results

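A set of 9 genes that mark the tendon and cartilage lineages was followed in engineered chick muscle tissues. They were chosen by name, with earlier results of these data known. All 9 were found among the 17775 genes of the deposited count table. The tendon genes were *SCX*, *TNMD*, and *MKX*, and the other 6 belong to cartilage and bone (*SOX9*, *SOX5*, *SOX6*, *ACAN*, *MATN1*, and *RUNX2*). The tissues were grown from primary myoblasts of *Gallus gallus*, isolated from the thighs of E10 embryos and enriched by pre-plating, a step that removes fast-adhering cells. The myoblasts were seeded on gelatin hydrogels crosslinked with transglutaminase and switched to low-serum medium at confluence. Bulk RNAseq was performed on 3 tissues at week 3 (day 21 after the switch, tissues 3-1 to 3-3) and on 5 tissues at week 1 (day 7, tissues 1-1 to 1-5). The study used this comparison to find genes that change as the muscle matures. The labels name no other treatment and no genetic change, and the tissues of both weeks were cultured without motor neurons. Pre-plating does not remove every cell that is not a myoblast, and the myoblast harvests behind each tissue are not given in the sources used here, so that harvest and week cannot be told apart and the p-values measure the spread between these tissues only.

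Tendon, cartilage, and the connective tissue within muscle lie next to the myofibers in the limb. *SCX* (scleraxis) encodes a basic helix-loop-helix factor that marks tendon progenitors and activates tendon collagen genes, *MKX* (mohawk) encodes a homeobox factor needed for tendon fibril growth in mouse, and *TNMD* (tenomodulin) encodes a membrane glycoprotein of mature tenocytes that acts downstream of scleraxis. In cartilage, SOX9 is the master factor of chondrocytes and acts together with SOX5 and SOX6 on genes such as *ACAN*, which encodes the large proteoglycan aggrecan, and *MATN1*, which encodes matrilin-1. RUNX2 drives chondrocyte hypertrophy and bone formation. Several of these genes are not restricted to the skeleton: *SOX6* is also expressed in muscle, where it represses slow fiber genes in mouse and zebrafish, and *MKX* is expressed in other mesenchymal cells.

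Depth at week 3 was between 15447904 and 18902561 estimated counts, and at week 1 it was between 14368710 and 16545497. Tissue 1-1 stood apart from the other week 1 tissues. It lay outside their range for 66.5% of 14309 genes, compared to 27.8% to 39.7% for each of the other 4. For each gene only the lowest and the highest tissue lie outside, so a high share in tissue 1-1 lowers the shares of the others. Values without tissue 1-1 are given beside the calls and ratios below that it changes. Without it, 38.6% of 14237 genes had an adjusted p below 0.05 in edgeR, and counts of genes called without it are to be read against that share. Skeletal muscle markers were present in every tissue, with a summed level of 15382 to 15631 CPM at week 3 and 14679 to 21889 CPM at week 1. CPM are counts scaled to the library total after adjustment by the TMM normalization factor of each tissue. An adjusted p below 0.05 by the quasi-likelihood test of edgeR was reached by 23.5% of the 14311 genes tested, with 11.5% higher and 12.0% lower at week 3. Levels are given below as FPKM-UQ, the normalized read count deposited by the authors, which is the count with 1 added, scaled by a factor for the tissue. It is not divided by gene length, so it is compared between tissues and not between genes.

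Of the 9 genes, 5 passed this test, against 23.5% of all genes. These genes and the lists below were chosen with earlier results of these data known. Their counts are therefore set beside the shares of all genes as a description and not as a test. *SCX* and *MKX* were higher at week 3, and *SOX6*, *ACAN*, and *RUNX2* were lower. *TNMD*, *SOX9*, *SOX5*, and *MATN1* did not pass. The thresholds that the study used for differential expression were p below 0.05 without adjustment and a change of more than 1.5-fold. Applied to the edgeR values, they were met by the same 5 genes and by 14.6% of all genes (7.22% higher and 7.39% lower at week 3). The study applied them to a different test, the gene specific analysis of Partek Flow. FPKM-UQ did not overlap between the weeks for 4 of the 9 genes (*SCX*, *MKX*, *SOX6*, and *RUNX2*), against 29.9% of all genes (16.2% higher and 13.6% lower at week 3). An exact two-sided permutation test on FPKM-UQ gave p = 0.0357 for each of these 4 (adjusted over the 9 genes, 0.0804). That is the smallest p that 3 tissues against 5 allow. For *ACAN* the permutation test gave p = 0.0714 (adjusted 0.129), and by it no gene had an adjusted p below 0.05. The median log2 fold change was -0.39 over the 9 genes and -0.01 over all genes tested. All 9 were low to moderate in depth, with 4 to 464 counts per tissue. In bulk tissue, fewer cells of a type and less RNA per cell cannot be told apart.

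**Figure D1:**
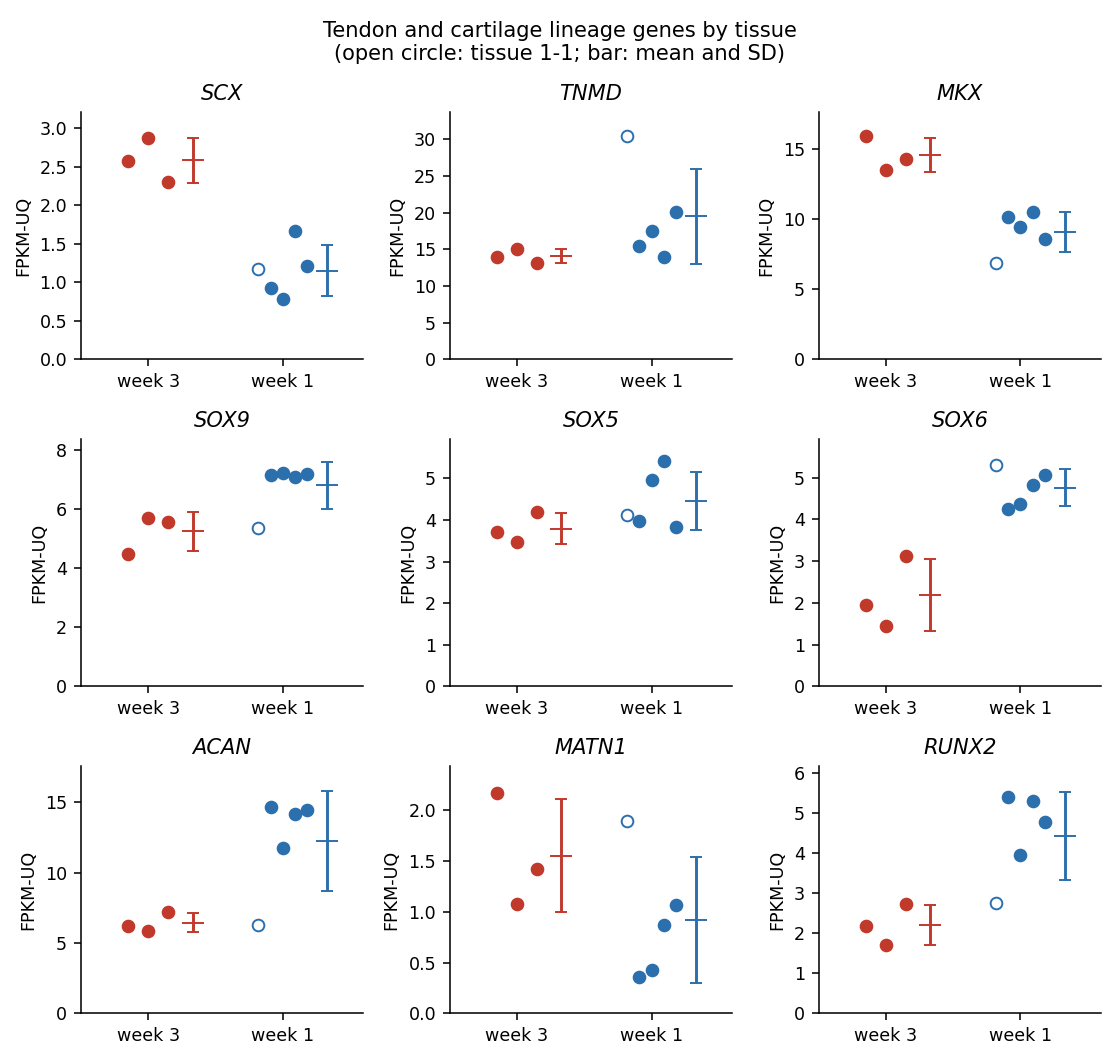
FPKM-UQ (vertical axis, from 0) of each of the 9 genes in the 3 week 3 tissues (red) and the 5 week 1 tissues (blue), with the mean and SD beside the points and tissue 1-1 as an open circle. The weeks are separate for *SCX*, *MKX*, *SOX6*, and *RUNX2*, and tissue 1-1 lies among the week 3 values of *ACAN* at 6.28.

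Among the tendon genes, *SCX* had 2.57, 2.87, and 2.30 FPKM-UQ in tissues 3-1 to 3-3, against 1.18, 0.922, 0.787, 1.67, and 1.21 in tissues 1-1 to 1-5. The week 3 values all lay above the highest of week 1. *SCX* averaged 2.58 ± 0.287 FPKM-UQ at week 3 (SD, n = 3) and 1.15 ± 0.337 at week 1 (SD, n = 5), a 2.29-fold higher level in edgeR's quasi-likelihood test (log2 fold change 1.19, SE 0.29, adjusted p = 0.012). The depth behind this was small, at 12 to 48.8 counts per tissue. The call was lost without tissue 3-2 (adjusted p = 0.057 in edgeR, range 0.00554 to 0.057 with each tissue left out in turn), with log2 fold changes of 1.07 to 1.37.

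*SCX* lies on chromosome 2 (galGal6, 130828340 to 130839148, plus strand) within the span of *BOP1* (130809697 to 130899628, minus strand), which encodes a ribosome assembly factor. Reads of both genes could be divided between them. The *SCX* count was not whole in 4 tissues, namely 3-1, 3-2, 3-3, and 1-4. In all 4 the sum of the *SCX* and *BOP1* counts was whole to within 0.01. These were all the tissues of week 3 and the week 1 tissue with the highest *SCX* value. In tissues 1-1, 1-2, 1-3, and 1-5 the *SCX* count was whole, at 12 to 17. *SCX* took 6.12% to 7.76% of the counts of both genes at week 3 and 2.40% to 5.17% at week 1. *BOP1* did not pass the test (log2 fold change 0.11, SE 0.09, adjusted p = 0.37 in edgeR). Whether strand was used in counting is not given in the sources used here. How much of the *SCX* signal, or of its difference between the weeks, came from *BOP1* was not tested.

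*MKX* (chromosome 2, 15687491 to 15728549) had 15.9, 13.5, and 14.3 FPKM-UQ in tissues 3-1 to 3-3, against 6.86, 10.1, 9.45, 10.5, and 8.61 in tissues 1-1 to 1-5. The weeks did not overlap, and tissue 1-1 was the lowest. *MKX* averaged 14.6 ± 1.23 FPKM-UQ at week 3 and 9.11 ± 1.45 at week 1, and was 1.59-fold higher at week 3 in edgeR (log2 fold change 0.67, SE 0.14, adjusted p = 0.0052). It kept its call with each of the 8 tissues left out in turn.

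The third tendon gene moved the other way without passing the test. *TNMD* (chromosome 4, 5184912 to 5192801) had 14.0, 15.0, and 13.2 FPKM-UQ in tissues 3-1 to 3-3, against 30.4, 15.4, 17.5, 14.0, and 20.1 in tissues 1-1 to 1-5. The weeks overlapped, and tissue 1-1 was far above the other week 1 tissues. The log2 fold change was -0.49 (SE 0.22, adjusted p = 0.13 in edgeR), and it was -0.26 without tissue 1-1, where the week 1 mean was 16.8 ± 2.68 FPKM-UQ.

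Ratios of 5 pairs of the 9 genes were also compared within each tissue, since a ratio does not depend on scaling between tissues. They restate the values above on another scale and are not separate evidence. The log2 ratio of *TNMD* to *SCX* was 2.45, 2.39, and 2.52 at week 3, against 4.69, 4.06, 4.47, 3.07, and 4.06 at week 1. All week 3 tissues were below all week 1 tissues, with a difference of -1.62 (exact two-sided permutation p = 0.0357, adjusted over 5 ratios 0.0893). This p is the smallest that 3 tissues against 5 allow. The log2 ratio of *MKX* to *SCX* had a difference of -0.51 (exact two-sided permutation p = 0.143, adjusted 0.143), and its weeks overlapped through tissue 1-1 only. It was 2.24 to 2.64 at week 3, against 2.54 in tissue 1-1 and 2.66 to 3.58 in tissues 1-2 to 1-5. The difference without tissue 1-1 was -0.63 (exact permutation p = 0.0571, the smallest that 3 tissues against 4 allow). Leaving out the only tissue that overlapped fixed this p in advance, so the p is no support.

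**Figure D2:**
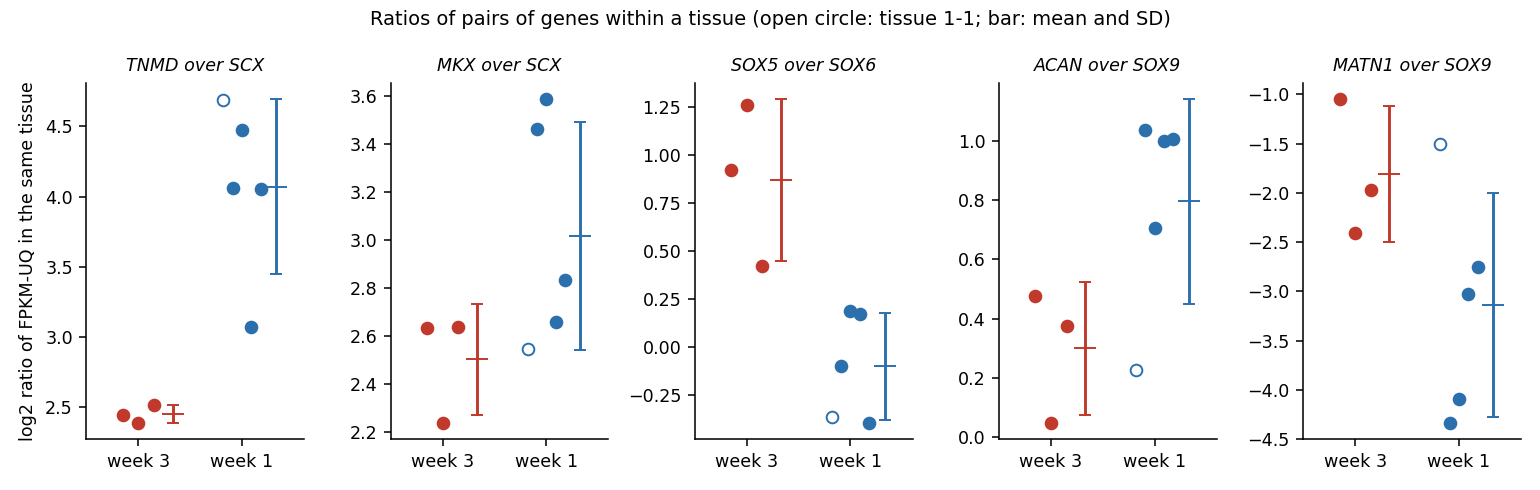
Log2 ratio of the FPKM-UQ of 2 genes within the same tissue, for 5 pairs of genes, at week 3 (red, 3 tissues) and week 1 (blue, 5 tissues), with the mean and SD and tissue 1-1 as an open circle. *TNMD* over *SCX* (difference -1.62) and *SOX5* over *SOX6* (difference 0.97) separate the weeks, and the other pairs overlap through tissue 1-1 only.

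Of the chondrogenic SOX genes, only *SOX6* passed the test with all tissues included. *SOX6* (chromosome 5, 11366630 to 11601653) had 1.96, 1.45, and 3.13 FPKM-UQ in tissues 3-1 to 3-3, against 5.30, 4.26, 4.36, 4.82, and 5.05 in tissues 1-1 to 1-5. Every week 3 tissue was below every week 1 tissue, and tissue 3-3 was the highest of its week. *SOX6* averaged 2.18 ± 0.860 FPKM-UQ at week 3 and 4.76 ± 0.444 at week 1, and was 2.22-fold lower at week 3 in edgeR (log2 fold change -1.15, SE 0.25, adjusted p = 0.0060). The call was kept whichever tissue was left out, at log2 fold changes of -1.50 to -0.93.

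*SOX9* (chromosome 18, 8785940 to 8789043) had 4.49, 5.69, and 5.55 FPKM-UQ in tissues 3-1 to 3-3, against 5.36, 7.16, 7.21, 7.09, and 7.19 in tissues 1-1 to 1-5. Tissues 1-2 to 1-5 were close to each other and above all week 3 tissues, whereas tissue 1-1 lay among the week 3 values. The log2 fold change was -0.39 (SE 0.16, adjusted p = 0.10 in edgeR). Without tissue 1-1, *SOX9* passed the test (log2 fold change -0.47, adjusted p = 0.024 in edgeR, range 0.024 to 0.32 with each tissue left out in turn).

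*SOX5* (chromosome 1, 65833774 to 66173569) had 3.71, 3.48, and 4.19 FPKM-UQ in tissues 3-1 to 3-3, against 4.12, 3.97, 4.97, 5.42, and 3.84 in tissues 1-1 to 1-5. The weeks overlapped, and the log2 fold change of -0.25 (SE 0.19, adjusted p = 0.37 in edgeR) did not pass the test under any alternative run. *SOX5* and *SOX6* encode closely related factors, and their log2 ratio was 0.92, 1.26, and 0.42 at week 3, against -0.36, -0.10, 0.19, 0.17, and -0.39 at week 1. The ratio was higher in all week 3 tissues, with a difference of 0.97 (exact two-sided permutation p = 0.0357, adjusted 0.0893).

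The cartilage matrix genes differed from each other. *ACAN* (chromosome 10, 13489102 to 13532281) had 6.24, 5.88, and 7.20 FPKM-UQ in tissues 3-1 to 3-3, against 6.28, 14.7, 11.7, 14.2, and 14.4 in tissues 1-1 to 1-5. Tissue 1-1 lay within the week 3 range, and the other week 1 tissues were all above it. *ACAN* was 1.93-fold lower at week 3 in edgeR (log2 fold change -0.94, SE 0.24, adjusted p = 0.015). The log2 fold change was -1.11 without tissue 1-1 (adjusted p = 6.9e-07 in edgeR), and the call was lost without tissue 3-1 (0.064) or 3-2 (0.071), where these are the adjusted p-values in edgeR and 6.9e-07 to 0.071 is the range over all 8 tissues left out.

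*MATN1* (chromosome 23, 355962 to 372949) had 2.17, 1.07, and 1.42 FPKM-UQ in tissues 3-1 to 3-3, against 1.90, 0.355, 0.424, 0.870, and 1.07 in tissues 1-1 to 1-5. Tissue 1-1 was again among the week 3 values, and tissues 1-2 to 1-5 were below all of them. For tissue 1-5 this was nearly a tie, at 1.067 (14 counts) against 1.075 (16 counts) in tissue 3-2. With 4 to 41 counts per tissue, the log2 fold change of 0.80 had an SE of 0.51 and did not pass the test (adjusted p = 0.29 in edgeR). Without tissue 1-1 it was 1.29 and passed (adjusted p = 0.025 in edgeR, range 0.025 to 0.68 with each tissue left out in turn).

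Relative to *SOX9* in the same tissue, both matrix genes overlapped between the weeks through tissue 1-1 only. The log2 ratio of *ACAN* to *SOX9* averaged 0.30 ± 0.22 at week 3 and 0.79 ± 0.34 at week 1 (exact two-sided permutation p = 0.107, adjusted 0.143). For *MATN1* to *SOX9*, it averaged -1.81 ± 0.69 at week 3 and -3.14 ± 1.14 at week 1 (exact two-sided permutation p = 0.143, adjusted 0.143). The ratio of *ACAN* to *SOX9* was 0.05 to 0.48 at week 3, against 0.23 in tissue 1-1 and 0.71 to 1.04 in tissues 1-2 to 1-5, and that of *MATN1* to *SOX9* was -2.40 to -1.05 at week 3, against -1.50 in tissue 1-1 and -4.34 to -2.75 in the others. Without tissue 1-1 the weeks were separate for both, with differences of -0.64 and 1.74 (exact permutation p = 0.0571 each, the smallest that this number of tissues allows). Since only tissue 1-1 made the weeks overlap, leaving it out fixed this p in advance, and the p is no support.

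*RUNX2* had 2.17, 1.71, and 2.72 FPKM-UQ in tissues 3-1 to 3-3, against 2.75, 5.39, 3.94, 5.28, and 4.77 in tissues 1-1 to 1-5. The weeks did not overlap, although tissue 1-1 was only slightly above the highest week 3 tissue. *RUNX2* averaged 2.20 ± 0.506 FPKM-UQ at week 3 and 4.42 ± 1.10 at week 1, and was 2.05-fold lower at week 3 in edgeR (log2 fold change -1.03, SE 0.27, adjusted p = 0.016). The call was lost without tissue 3-1 (adjusted p = 0.060 in edgeR) or 3-2 (0.079), within a range of 0.00035 to 0.079 over the 8 tissues left out. *RUNX2* (chromosome 3, 109295891 to 109443059, plus strand) overlaps *SUPT3H* on the minus strand (109064071 to 109337622), which had a log2 fold change of 0.34 (SE 0.20, adjusted p = 0.25 in edgeR). Reads from the shared stretch cannot be told apart without strand, although all *RUNX2* counts were whole.

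**Figure D3:**
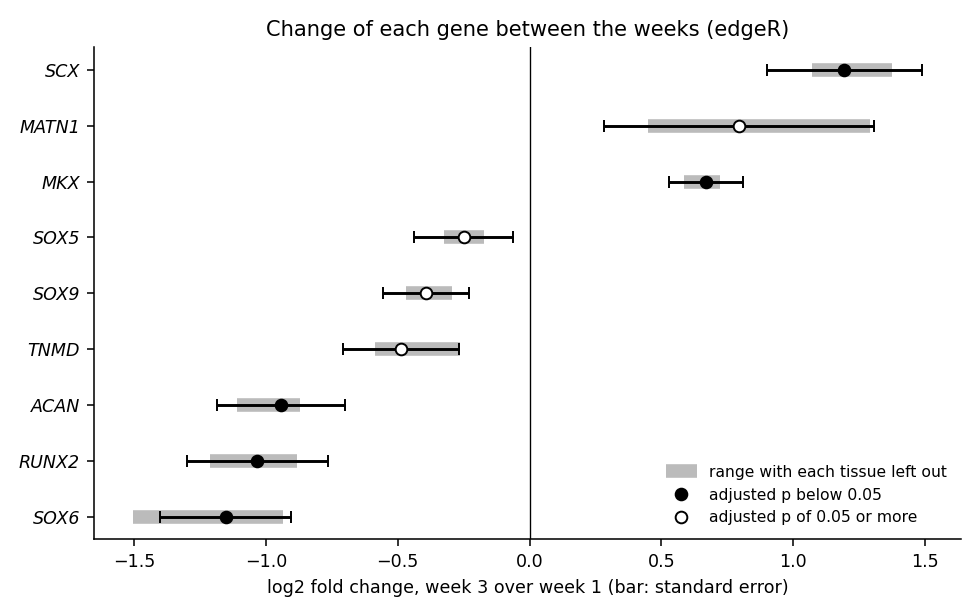
Log2 fold change of each of the 9 genes, week 3 over week 1 (horizontal axis), with its standard error as a bar and, in gray, the range of values with each tissue left out in turn. Filled points have an adjusted p below 0.05 in edgeR. *SCX* (1.19) and *MKX* (0.67) are to the right and *ACAN* (-0.94), *RUNX2* (-1.03), and *SOX6* (-1.15) are to the left, and no gray range crosses 0.

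Other genes of these lineages were counted in the same edgeR fit, which called 23.5% of all genes (11.5% higher and 12.0% lower at week 3). Of 15 tendon matrix and regulator genes tested, 1 was higher and 4 were lower at week 3, with a median log2 fold change of -0.26. *COL14A1*, a collagen associated with fibrils, was the lowest, with 34.1, 36.7, and 38.4 FPKM-UQ at week 3 against 78.0, 106, 97.9, 91.5, and 104 at week 1 (log2 fold change -1.41, SE 0.10, adjusted p = 4.6e-06 in edgeR). *COL3A1*, the fibrillar collagen III chain, was also lower (-0.85, SE 0.16, adjusted p = 0.0031), as was *EGR1*, a zinc finger factor that promotes tendon collagen expression (-0.32, SE 0.09, adjusted p = 0.018, and 0.076 or 0.084 without tissue 3-1 or 3-2). *COL12A1*, a collagen of the same subfamily as *COL14A1*, was higher, with 1627, 1636, and 1586 FPKM-UQ at week 3 against 1092, 999, 1045, 1304, and 1013 at week 1 (0.55, SE 0.09, adjusted p = 0.00079). Both collagens separated the weeks completely, in opposite directions. Without tissue 1-1, 11 of the tendon genes passed, 1 higher and 10 lower, in a fit that called 38.6% of all genes.

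Of 9 cartilage matrix genes tested, 1 was higher and 4 were lower, against 23.5% of all genes called, with a median log2 fold change of -0.11. *COL2A1*, the main collagen of cartilage, had 7.22, 6.32, and 8.03 FPKM-UQ at week 3 against 36.0, 21.4, 17.9, 15.3, and 18.9 at week 1 (log2 fold change -1.63, SE 0.26, adjusted p = 0.00094 in edgeR). *MATN2* was lower as well (-1.90, SE 0.15, adjusted p = 9.0e-06), a matrilin that is also found outside cartilage, as was the cartilage matrilin *MATN3* at 8 to 32 counts (-1.35, SE 0.39, adjusted p = 0.026, with the call lost in 4 of the 8 fits that left out a tissue). *HAPLN1* encodes the link protein that binds aggrecan to hyaluronan, and it went the opposite way to *ACAN*. It had 4.02, 4.68, and 3.66 FPKM-UQ at week 3 against 1.37, 0.284, 1.33, 0.937, and 0.925 at week 1 (2.13, SE 0.36, adjusted p = 0.0014). These values rest on few reads, with 61 to 77 counts per tissue at week 3 and 3 to 21 at week 1. The weeks did not overlap for *COL2A1*, *MATN2*, or *HAPLN1*. They also did not overlap for *COL9A2*, the remaining lower gene, named here after its values were seen (-0.76, SE 0.23, adjusted p = 0.030 in edgeR). Over all genes, 29.9% did not overlap.

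Of 10 cartilage regulator and growth plate signaling genes tested, 1 was higher and 1 was lower, against 23.5% of all genes called, with a median of 0.12. The homeobox gene *BARX2* was lower (log2 fold change -0.98, SE 0.26, adjusted p = 0.017 in edgeR) and the forkhead gene *FOXC2* was higher (1.17, SE 0.31, adjusted p = 0.018). Neither call held throughout: *BARX2* was lost without tissue 3-2 (0.077) or 3-3 (0.063), and *FOXC2* without tissue 3-1 (0.076) or 3-3 (0.089). Without tissue 1-1, 7 of these genes passed, 4 higher and 3 lower, against 38.6% of all genes.

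Genes of hypertrophic cartilage and bone were split. Of 13 tested, 2 were higher and 2 were lower, against 23.5% of all genes called, with a median of -0.09. *SPP1*, which encodes the secreted phosphoprotein osteopontin and is also expressed by macrophages, had 33.7, 33.6, and 35.9 FPKM-UQ at week 3 against 87.0, 145, 186, 206, and 185 at week 1 (log2 fold change -2.25, SE 0.23, adjusted p = 4.6e-05 in edgeR). *ALPL*, an alkaline phosphatase of mineralizing cells, was lower (-1.05, SE 0.26, adjusted p = 0.011, and 0.061 without tissue 3-1). *BGLAP*, which encodes osteocalcin, had 12.6, 11.9, and 16.2 FPKM-UQ at week 3 against 4.32, 6.17, 7.75, 6.62, and 7.61 at week 1 (1.06, SE 0.18, adjusted p = 0.0016). The homeobox gene *DLX5*, a regulator of osteoblasts, was higher (1.59, SE 0.30, adjusted p = 0.0026). *SP7*, the osteoblast factor that acts downstream of RUNX2, did not pass (0.18, SE 0.14, adjusted p = 0.39), and *COL10A1*, the collagen of hypertrophic cartilage, was not matched by symbol and is not analysed here. Without tissue 1-1, 8 of the 13 genes passed, 3 higher and 5 lower, against 38.6% of all genes.

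None of the 6 other SOX family genes tested passed in edgeR, against 23.5% of all genes, with a median log2 fold change of 0.04. At an unadjusted p below 0.05 in edgeR there was 1 of the 6. DESeq2 fitted 11 genes of this list and gave 0 with an adjusted p and 1 with an unadjusted p below 0.05. By adjusted p, DESeq2 called 3661 of 17775 genes. The share of all genes at an unadjusted p below 0.05 was not counted in either tool. *SOX8*, the relative of *SOX9*, had a log2 fold change of -0.07 (SE 0.17, adjusted p = 0.81 in edgeR), which was 0.07 without tissue 1-1 and 0.04 without tissue 3-3. *SOX13*, the relative of *SOX5* and *SOX6*, had a log2 fold change of -0.17 (SE 0.34, adjusted p = 0.77). *SOX10*, a factor of Schwann cells, had 1 to 8 counts per tissue and was not tested. Without tissue 1-1, 1 of the 6 passed, in the higher direction, against 38.6% of all genes.

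Since *SOX6* represses slow fiber genes in other species, slow fiber genes were counted as well. Of 9 tested, 4 were higher and 1 was lower at week 3, with a median log2 fold change of 0.13. Over all genes, 11.5% were called higher and 12.0% lower. *MYL2*, the slow and cardiac regulatory light chain, had 22.3, 19.8, and 23.2 FPKM-UQ at week 3 against 8.24, 3.62, 3.33, 5.22, and 2.92 at week 1 (log2 fold change 2.22, SE 0.26, adjusted p = 0.00011 in edgeR). *TNNC1*, the slow and cardiac troponin C, was higher (0.53, SE 0.08, adjusted p = 0.00076), and both genes kept their calls with each tissue left out. The slow myosin genes were less stable. *MYH7* (0.78, SE 0.24, adjusted p = 0.034) lost its call in 7 of the 8 fits that left out a tissue, and kept it without tissue 1-1, and *MYH7B* (-0.42, SE 0.14, adjusted p = 0.044) lost its call in 6. The relation between *SOX6* and these genes was not tested.

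**Figure D4:**
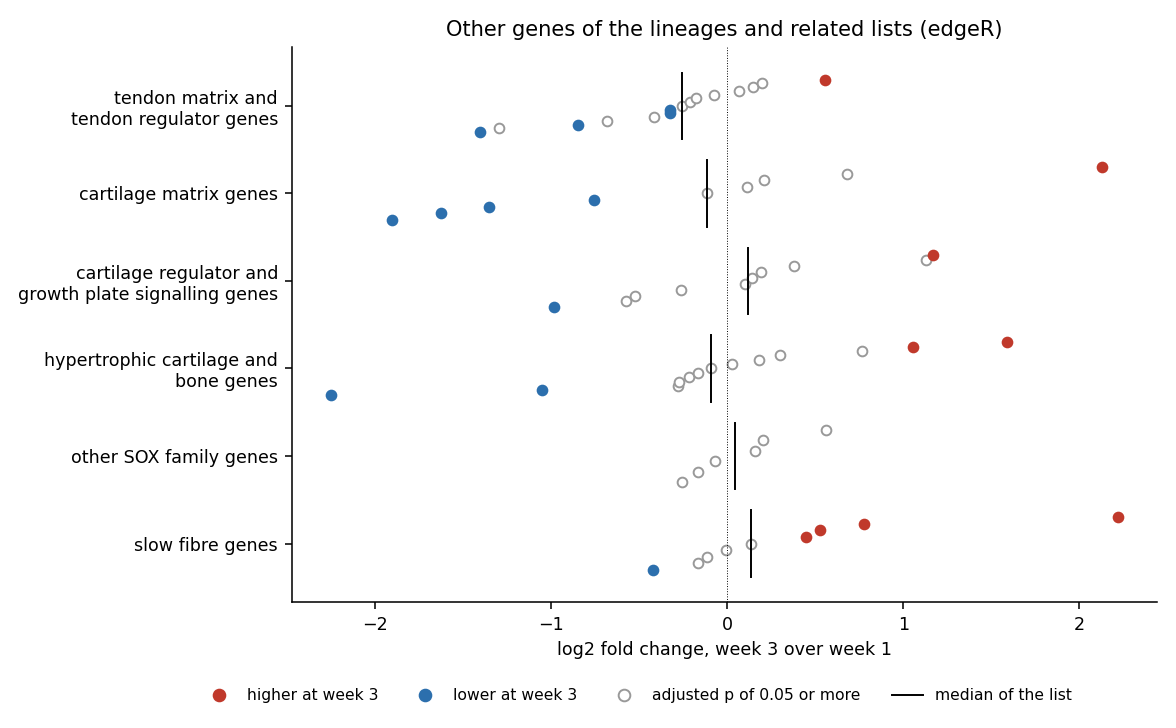
Log2 fold change, week 3 over week 1 (horizontal axis), of each tested gene in the 6 lists of related genes, with genes of an adjusted p below 0.05 in edgeR filled (red, higher at week 3; blue, lower) and the median of each list as a vertical bar. The medians lie between -0.26 and 0.13, and called genes stand on both sides in every list except the other SOX family genes, of which none was called.

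The lists of other cell types differed between the weeks as well. Their calls are to be read against 11.5% of all genes called higher and 12.0% called lower at week 3. The summed level of 9 fibroblast markers was 5254 to 5357 CPM at week 3 and 5381 to 8489 CPM at week 1, with 1 gene higher and 6 lower, and tissue 1-1 held the lowest week 1 value. Most of that sum was *COL6A3*, named here after its values were seen, which was lower (log2 fold change -0.72, SE 0.15). Among the next largest, *LUM* was lower (-0.94, SE 0.08), *POSTN* was higher (0.49, SE 0.07), and *THY1* was not called (0.28, SE 0.12). The 4 smooth muscle markers summed to 2613 to 2627 CPM at week 3 and 708 to 918 CPM at week 1 (1 higher, 1 lower). That difference lay in *ACTA2*, named here after its values were seen, with a log2 fold change of 2.04 (SE 0.11), whereas *MYH11* (0.40, SE 0.29) and *CNN1* (-0.02, SE 0.10) were not called and *SMTN* was lower (-0.44, SE 0.11). The 5 leukocyte markers summed to 13.6 to 15.7 CPM at week 3 and 50.6 to 71.8 CPM at week 1 (4 lower). The 5 endothelial markers summed to 25.1 to 28.4 CPM at week 3 and 33.8 to 41.3 CPM at week 1 (of 3 tested, 1 lower). The 5 Schwann cell markers summed to 42.9 to 45.2 CPM at week 3 and 40.9 to 61.5 CPM at week 1 (of 3 tested, 1 lower). No marker was at 0 in all tissues, and the part of these cell types in the values of the lineage genes was not tested.

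The genes whose log2 FPKM-UQ was most like that of each called lineage gene were found among 10548 genes over the 8 tissues, by Pearson's r, as a description. The points share the contrast of the weeks and the same libraries. Pearson's r does not measure the size of a change. For *SCX* these were *POLR1C* (r = 0.98) and *FAM83G* (0.98), and for *MKX* they were *HS6ST2* (0.99) and *EVL* (0.98). *HS6ST2* was not called (log2 fold change 0.19, adjusted p = 0.31 in edgeR), whereas the other genes named in this paragraph were. For *SOX6* they were *PPP1R14C* (0.98) and *IST1* (0.97). For *ACAN* they were *SLC16A3* (0.99), a lactate transporter, and *ENO1* (0.99), a glycolytic enzyme, both of which had tissue 1-1 near the week 3 values as *ACAN* did. For *RUNX2* they were *C26H6orf106* (0.98) and *RMDN1* (0.98).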

How the data were processed

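RNA from 8 chick muscle tissues (3 at week 3, 5 at week 1) was compared. Per the labels, reads were processed with STAR 2.7.3a and Partek against galGal6 (GRCg6a), and strand settings are not given in the sources used here. The authors deposited estimated counts per gene (80.98% whole) for 17775 genes with at least 10 counts in total. The authors also deposited a normalized signal, FPKM-UQ, for 15394 genes, which equals the count plus 1 divided by 1 factor per tissue. Total counts were 14368710 to 18902561 per tissue.

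After rounding, the counts entered edgeR 4.0.16 (filterByExpr, TMM, quasi-likelihood test, two-sided) in R 4.3.3, with Benjamini-Hochberg adjustment over 14311 genes and a threshold of 0.05. SEs were obtained from the F statistic, as the absolute log2 fold change over its root. Single values were compared by exact permutation in scipy 1.17.1 (56 splits). The edgeR procedure was tested on simulated data in which 200 genes were changed 2-fold. No simulated tissue stood apart as tissue 1-1 did, so that test does not cover its effect on the calls. No tissue was left out, and all pairs of tissues within a week differed beyond sampling noise.

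The genes and lists were chosen with earlier results of these data known. Named from each list were up to 3 called genes with the largest change in each direction, plus *COL2A1*, *COL10A1*, *SP7*, *HAPLN1*, *SOX8*, *SOX10*, and *SOX13*. For each called lineage gene, the 2 genes with the highest r and a mean FPKM-UQ of at least 1 were named. The genes *BGN*, *COMP*, *COL11A1*, *COL11A2*, *CNMD*, *CHAD*, *UCMA*, *PRG4*, *PTH1R*, *COL10A1*, *IBSP*, *SOX1*, *SOX7*, *TNNT1*, *CKM*, *RYR1*, *TTN*, and *TCF21* were not matched and are not analysed here. Alternatives were DESeq2 1.42.0, upper-quartile factors, no count filter, a mean count of at least 50, the replicate number as a block, limma 3.58.1 on log2(FPKM-UQ + 1), on log2(FPKM-UQ + 0.1), and with a mean of at least 1, and each tissue left out.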

Additional observations from a re-analysis of the deposited data

Results flagged for a closer look

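In 4 of 35 groups of 5 week 1 values examined with Dixon's criterion, 1 tissue lay apart from the other 4. Chance gives about 1 in 20 for independent groups. These groups share the same 5 tissues, some are ratios of others, and many are genes named because they were called. The count is therefore a description and not a test against that rate. In 3 of the 4 it was tissue 1-1. *SOX9* was 5.36 FPKM-UQ in tissue 1-1, against 7.09 to 7.21 in tissues 1-2 to 1-5. *COL3A1* was 3036 FPKM-UQ in tissue 1-1, with the other week 1 tissues at 5231 or above. *MYH7* was 7.71 FPKM-UQ in tissue 1-1, with the other week 1 tissues at 4.21 or below. *MATN3* was 1.07 FPKM-UQ in tissue 1-5, with the other week 1 tissues at 2.00 or above.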

How the results depend on the processing

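Of the values of the 9 genes under the alternatives, 133 kept their direction and their side of the threshold, 7 lost the call, and 2 gained it, and none changed sign. With each tissue left out in turn, 2 to 7 of the 9 genes were called. There were 2 without tissue 3-2, 3 without tissue 3-1, and 7 without tissue 1-1, with *SOX9* and *MATN1* added. Of the 62 genes of the lists, 14 to 37 were called. Over all genes, calls by adjusted p ranged from 2119 of 14587 (without tissue 3-3) to 5498 of 14237 (38.6%, without tissue 1-1). Such calls were 2133 of 14607 without tissue 3-2 and 2181 of 14603 without tissue 3-1. By p and fold, 1976 to 2348 genes were called. With a mean count of at least 50, *SCX* and *MATN1* were not tested, and 1285 genes met the p and fold thresholds. Replicate numbers did not pair the tissues (correlations of deviations 0.011, -0.0031, and -0.0050). With the number as a replicate block, 2073 of 14311 genes were called by adjusted p in edgeR. Of the 9 genes, 3 were called (*SCX*, *MKX*, and *SOX6*), and *ACAN* (adjusted p = 0.088 in edgeR) and *RUNX2* (0.12) were not. Numbers 4 and 5 occur at week 1 only, so in that fit tissues 1-4 and 1-5 do not inform the difference between the weeks. *SOX8*, not called, changed sign without tissue 3-3 (log2 fold change 0.041) and without tissue 1-1 (0.067), in a range from -0.16 to 0.067. The causes were not tested. Depth limits *SCX* and *MATN1* most, at 12 to 48.8 and 4 to 41 counts per tissue.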

Other observations

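Tissue 1-1 differed from the other week 1 tissues gene by gene within these lineages, as it did over all genes. It lay outside their range for 66.5% of 14309 genes, and the counts below are to be read against that share. How those genes divide into above and below was not counted. Of the 9 genes it was above all other week 1 tissues for 3 (*TNMD*, *SOX6*, and *MATN1*), below them for 4 (*MKX*, *SOX9*, *ACAN*, and *RUNX2*), and among them for 2 (*SCX* and *SOX5*). Of the 62 genes of the lists that were tested, it was above for 19, below for 28, and among them for 15. The following genes were chosen after their values were seen. *KERA*, a keratan sulfate proteoglycan of cornea and tendon, was 62.2 FPKM-UQ in tissue 1-1 against 15.3 to 18.9 in the others, and *THBS4*, a matrix protein of tendon and muscle, was 14.3 against 4.97 to 6.76. *MMP13*, a collagenase of hypertrophic cartilage, was 3.01 FPKM-UQ in tissue 1-1 against 21.1 to 29.2 in the others, and *NKX3-2*, a factor that maintains immature chondrocytes, was 3.40 against 13.3 to 19.4. *KERA* and *THBS4* were the exceptions within their list: of the 15 tendon matrix and regulator genes, tissue 1-1 was above for 2, below for 10, and among the others for 3. Of the 9 cartilage matrix genes it was above for 5 and below for 0. Of the 13 hypertrophic cartilage and bone genes it was above for 1 and below for 10. Whether these splits differ from that of all genes was not tested. With 1 such tissue no test was possible.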
